A study of Mus musculus with 6 samples.

Results

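Smooth muscle contractile genes were followed in granulosa cells, the somatic cells of the ovarian follicle that nurse the oocyte. The set held 10 genes of the 55860 in the deposited gene tables: the actin genes Acta2 and Actg2, the myosin genes Myh11 and Myl9, the filament-binding genes Cnn1, Tagln, Smtn and Lmod1, the intermediate filament gene Des, and Myocd, the transcriptional coactivator of this programme. The 10 were found by symbol, and each symbol had 1 row. The set was chosen by measured values of this same comparison, namely that Actg2 and Myh11 were higher and Tagln lower in Il22r-/- cells, so the changes between genotypes are given here as a description, without p-values, and support nothing beyond it. All 10 had enough counts for the test across genes, which covered 15227 genes.

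The study compared granulosa cells of Il22r-/- mice with those of Il22r+/+ mice, with 3 libraries per genotype. The cells of both genotypes were isolated from the ovary on a density gradient, kept for 12 h in serum-containing medium and taken for sequencing. The deleted exon, the strain and age of the mice, any pooling of animals and the read length were not given in the sources used here. Nothing in the labels says whether the libraries of a genotype came from separate animals or cultures. The p-values below weigh the difference between genotypes against the spread between these libraries. That spread may be technical and leave out variation between animals.

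Smooth muscle cells shorten when myosin filaments pull on actin filaments, after a kinase has phosphorylated the regulatory light chain of myosin. Most genes of this machinery are switched on by serum response factor, which binds a DNA element named the CArG box, together with myocardin or the related MRTF coactivators that respond to free actin. In the ovary, the contractile genes are best known from the walls of vessels and from the outer, thecal layer of the follicle, and smooth muscle actin also appears in many cells once they are spread in culture.

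The counted reads ranged from 14.95 M to 18.12 M (M, mega-reads) in Il22r-/- libraries and from 17.43 M to 17.7 M in Il22r+/+ libraries. Il22ra1, which encodes the receptor chain for IL-22, was covered by 5, 2 and 0 reads in Il22r-/- and by 1, 5 and 4 reads in Il22r+/+, too few to check the genotype labels. The granulosa markers were plentiful as a sum in both genotypes, at 9436 to 10379 CPM (counts per mega-read after TMM scaling) in Il22r-/- and 8707 to 9655 CPM in Il22r+/+. Not every marker was: Fshr, named after its values were seen, was scarce in Il22r+/+. It had 1, 7 and 5 reads in Il22r+/+ replicates 1 to 3, against 95, 109 and 109 in Il22r-/- replicates 1 to 3. Of the 12 markers 6 rose, 3 fell and 3 did not pass by the edgeR quasi-likelihood test. That is 75.0% called, beside 45.7% of all tested genes. Inhba, which rose 1.62-fold, Inha, which did not pass, and Serpine2, which fell 3.26-fold, were the most abundant. Il22r-/- replicate 3 was the shallowest library and stood apart from the others on the second principal component of the 500 most variable genes (score 14.5, against -8.93 to 1.22). Its effect on the contractile genes is given below.

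Of the 10 genes, 5 lay higher and 3 lower in Il22r-/- past the threshold of the edgeR quasi-likelihood test, and Cnn1 and Smtn did not pass. In the same comparison 45.7% of all tested genes passed, 23.6% higher and 22.1% lower. The values of the 3 Il22r-/- libraries lay wholly above or wholly below those of the 3 Il22r+/+ libraries for 8 of the 10, against 56.0% of all tested genes. The Il22r-/- libraries were all above for 5 of the 10, against 28.7% of all tested genes, and all below for 3, against 27.3%. The median log2 difference was 0.38 over the 10 and 0.03 over all tested genes. Because the contrast chose the genes, nothing is read from these counts. Differences of 2-fold or more were seen in 4 of the 10, beside 2366 of the 15227 tested genes. The 4 were Actg2, Myh11, Myocd and Des, and all 4 lay higher in Il22r-/-. The rise of Actg2 and Myh11 was part of the choice of the set, so nothing is read from this shared direction either.

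**Figure D1:**
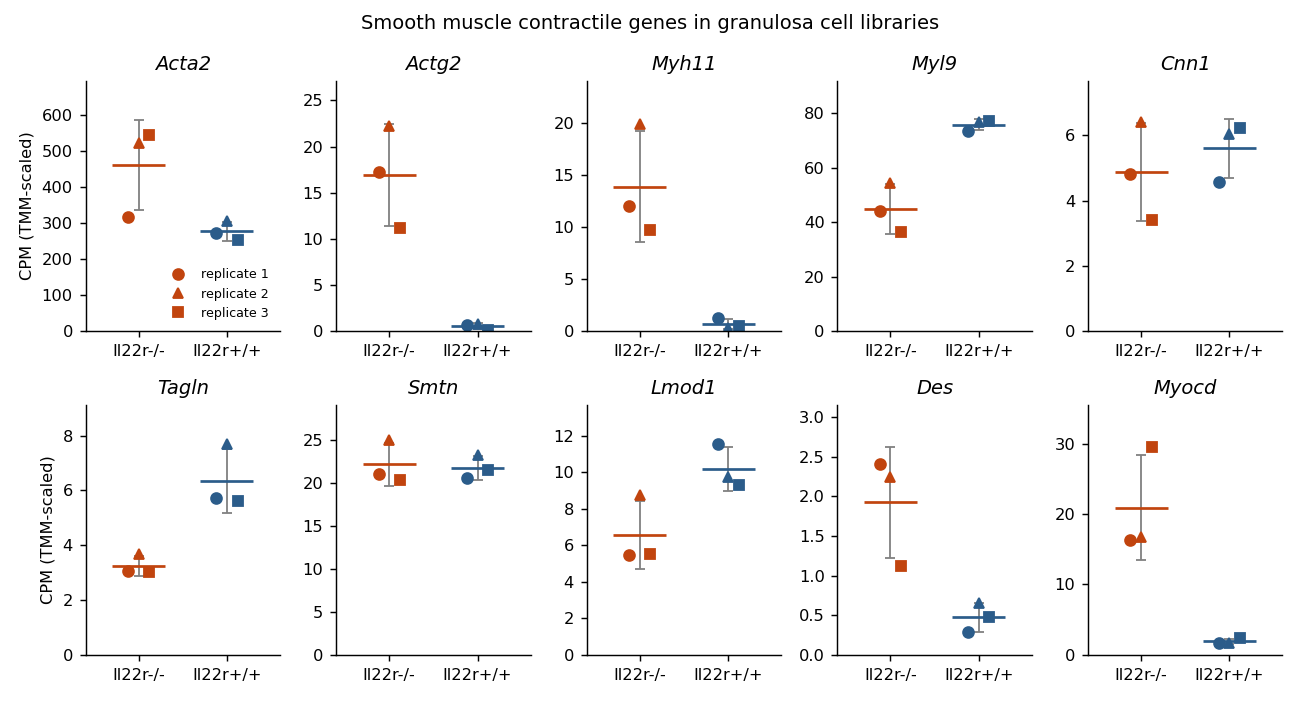
CPM after TMM scaling (y axis, linear, starting at 0) of each of the 10 genes in the 3 Il22r-/- libraries (left in each panel) and the 3 Il22r+/+ libraries (right). Symbols mark the replicate number in both colours (circle 1, triangle 2, square 3), horizontal lines the mean and grey bars 1 SD. The genotypes do not overlap in 8 panels, while the values of Cnn1 and Smtn do.

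Among the thin filament genes, Acta2, which encodes the alpha actin of vascular smooth muscle, was the most abundant. Acta2 (ENSMUSG00000035783, mm10 chromosome 19, 34241090 to 34255590, minus strand) had 318, 523 and 546 CPM in Il22r-/- replicates 1 to 3, against 272, 307 and 254 CPM in Il22r+/+ replicates 1 to 3. Every Il22r-/- library lay above every Il22r+/+ library, but Il22r-/- replicate 1 only narrowly, at 318 against the highest Il22r+/+ value of 307 CPM. The fold difference was 1.67 (log2 0.74 ± 0.20, SE). Acta2 no longer passed the threshold in 5 of 15 alternative analyses, 4 of which left out 1 library (Il22r-/- replicate 2 or 3, or Il22r+/+ replicate 1 or 3).

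Actg2 encodes the gamma actin of enteric smooth muscle and showed the largest difference of the 10. Actg2 (ENSMUSG00000059430, chromosome 6, 83512905 to 83536265, minus strand) had 329, 417 and 170 reads in Il22r-/- replicates 1 to 3, against 11, 13 and 3 in Il22r+/+ replicates 1 to 3. That corresponds to 17.3, 22.2 and 11.2 CPM in Il22r-/- and 0.643, 0.776 and 0.178 CPM in Il22r+/+. The lowest Il22r-/- library was still far above the highest Il22r+/+ library, and the fitted difference was 31.4-fold (log2 4.97 ± 0.41, SE; 4.56 to 5.33 when 1 library was left out).

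Lmod1, a leiomodin that seeds actin filaments in smooth muscle, went the other way. Lmod1 (ENSMUSG00000048096, chromosome 1, 135324807 to 135368065, plus strand) had 5.46, 8.75 and 5.52 CPM in Il22r-/- replicates 1 to 3, against 11.6, 9.73 and 9.30 CPM in Il22r+/+ replicates 1 to 3. The genotypes did not overlap, although Il22r-/- replicate 2 came close to Il22r+/+ replicate 3. The difference was 1.55-fold lower (log2 -0.63 ± 0.20), and it lost the threshold in 6 of 15 alternatives, 4 of which left out 1 library (Il22r-/- replicate 1 or any Il22r+/+ library) and another of which used library size alone for scaling.

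The thick filament genes split. Myh11, the smooth muscle myosin heavy chain and the most widely used marker of differentiated smooth muscle, had 12.0, 20.0 and 9.79 CPM in Il22r-/- replicates 1 to 3, against 1.29, 0.298 and 0.533 CPM in Il22r+/+ replicates 1 to 3. Myh11 (ENSMUSG00000018830, chromosome 16, 14194535 to 14291372, minus strand) had as few as 5 reads in an Il22r+/+ library, and its 19.5-fold difference (log2 4.29 ± 0.45) therefore leaned on that group. Leaving out Il22r+/+ replicate 1, which held 22 of the 36 Il22r+/+ reads, moved the log2 difference to 5.04. Myl9, the regulatory light chain whose phosphorylation starts contraction, had 44.1, 54.4 and 36.3 CPM in Il22r-/- replicates 1 to 3, against 73.6, 76.9 and 77.1 CPM in Il22r+/+ replicates 1 to 3. Myl9 (ENSMUSG00000067818, chromosome 2, 156775420 to 156781658, plus strand) was thus 1.69-fold lower (log2 -0.75 ± 0.13), with a tight Il22r+/+ group (SD 1.95 CPM) and a wider Il22r-/- group (SD 9.05 CPM).

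**Figure D2:**
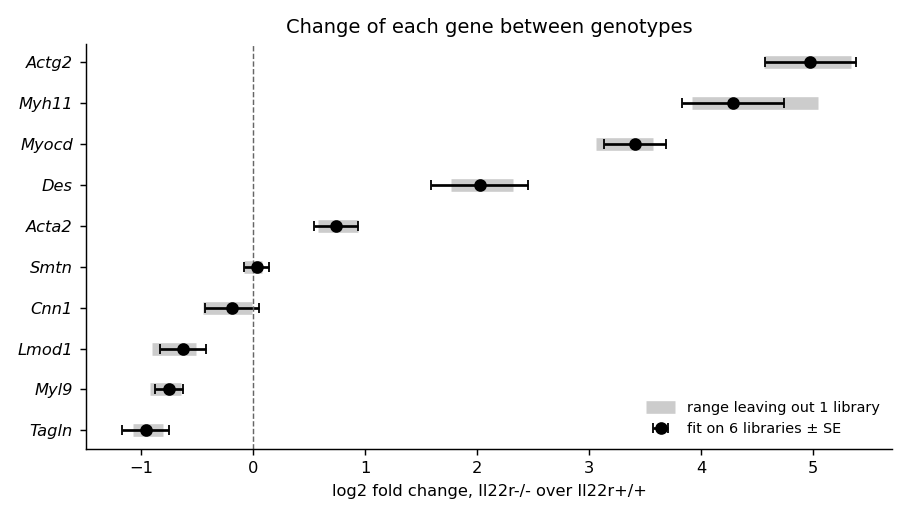
Log2 fold change between genotypes (x axis, Il22r-/- over Il22r+/+, positive meaning higher in Il22r-/-) for each of the 10 genes, with its standard error, and in grey the range of the estimate when each of the 6 libraries was left out in turn. Actg2, Myh11, Myocd, Des and Acta2 lie above 0, Tagln, Myl9 and Lmod1 below it, and the range for Smtn crosses 0.

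Of the filament-binding genes other than Lmod1, Tagln was lower, and Cnn1 and Smtn showed no difference beyond the spread. Tagln, or transgelin, encodes an actin-bundling protein that is an early marker of smooth muscle. Tagln (ENSMUSG00000032085, chromosome 9, 45929619 to 45936058, minus strand) had 58, 69 and 46 reads in Il22r-/- replicates 1 to 3, against 98, 129 and 95 in Il22r+/+ replicates 1 to 3. In CPM these were 3.05, 3.68 and 3.02 in Il22r-/- and 5.73, 7.70 and 5.63 in Il22r+/+, a 1.95-fold lower level (log2 -0.96 ± 0.21) with no overlap.

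The Tagln count carries a limit of its own. In the GENCODE M21 annotation of the same build, the long non-coding RNA gene Gm48529 on the other strand covers 62.4% of the Tagln exon length and Pcsk7 a further 5.43%. Whether reads were counted by strand is not given in the sources used here, so how reads of the shared stretch were treated is not known, and their part in the low Tagln level was not tested. Gm48529 had 48, 36 and 19 reads in Il22r-/- replicates 1 to 3, against 46, 42 and 33 in Il22r+/+ replicates 1 to 3, which left it without a call (log2 -0.32 ± 0.31, edgeR adjusted p = 0.43). Antisense exons also cover 16.3% of Smtn (Gm11946, with at most 7 reads in a library) and 5.86% of Des (Gm15179, with 0 reads in every library). No other gene overlapped the exons of the remaining 7.

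Cnn1, calponin, binds actin and damps the myosin motor. Cnn1 (ENSMUSG00000001349, chromosome 9, 22099216 to 22109630, plus strand) had 4.83, 6.40 and 3.42 CPM in Il22r-/- replicates 1 to 3, against 4.56, 6.03 and 6.22 CPM in Il22r+/+ replicates 1 to 3. The groups overlapped, with a log2 difference of -0.19 ± 0.24. Smtn, or smoothelin, is an actin-associated protein of contractile smooth muscle. Smtn (ENSMUSG00000020439, chromosome 11, 3517523 to 3540612, minus strand) had 21.1, 25.1 and 20.4 CPM in Il22r-/- replicates 1 to 3, against 20.6, 23.3 and 21.5 CPM in Il22r+/+ replicates 1 to 3. The difference of 0.03 ± 0.11 on the log2 scale was smaller than its standard error, and its sign changed in some alternatives.

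Des encodes desmin, the muscle intermediate filament, and was scarce. Des (ENSMUSG00000026208, chromosome 1, 75360329 to 75368579, plus strand) had 46, 42 and 17 reads in Il22r-/- replicates 1 to 3, against 5, 11 and 8 in Il22r+/+ replicates 1 to 3. The genotypes did not overlap, and the difference was 4.06-fold (log2 2.02 ± 0.44), but Il22r-/- replicate 3 had 1.12 CPM where the other Il22r-/- libraries had 2.24 and 2.42 CPM.

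Myocd, the coactivator, was among the strongly higher genes. Myocd (ENSMUSG00000020542, chromosome 11, 65176561 to 65269989, minus strand) had 311, 315 and 449 reads in Il22r-/- replicates 1 to 3, against 30, 29 and 40 in Il22r+/+ replicates 1 to 3. In CPM these were 16.3, 16.8 and 29.5 in Il22r-/- and 1.75, 1.73 and 2.37 in Il22r+/+, a 10.6-fold difference (log2 3.41 ± 0.28). Within Il22r-/-, the library highest in Myocd was replicate 3, which was the lowest in Actg2 and Myh11.

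The order of the genes within a library can be compared per transcript length, for which the deposited FPKM values (fragments per kilobase and mega-read) were used. In Il22r-/- the order ran from Acta2 (213 ± 59.1 FPKM, SD, n = 3) through Myl9 (39.0 ± 7.73), Actg2 (10.9 ± 3.56), Smtn (5.12 ± 0.572) and Myocd (3.29 ± 1.20) to Myh11 (1.85 ± 0.707), Cnn1 (1.80 ± 0.545), Lmod1 (1.68 ± 0.481), Tagln (1.65 ± 0.189) and Des (0.516 ± 0.186). The values of Myh11, Cnn1, Lmod1 and Tagln overlapped one another, and Myocd overlapped Myh11. In Il22r+/+ the order ran from Acta2 (129.8 ± 12.3 FPKM) through Myl9 (67.1 ± 1.70), Smtn (5.11 ± 0.312), Tagln (3.28 ± 0.596), Lmod1 (2.66 ± 0.317) and Cnn1 (2.10 ± 0.340) to Actg2 (0.351 ± 0.207), Myocd (0.312 ± 0.0584), Des (0.130 ± 0.0496) and Myh11 (0.0955 ± 0.0699). There, Lmod1 overlapped Tagln, Actg2 overlapped Myocd, Des and Myh11, and Des overlapped Myh11. By mean FPKM Actg2 held rank 3 of the 10 in Il22r-/- and rank 7 in Il22r+/+, and Myh11 held rank 6 in Il22r-/- and rank 10 in Il22r+/+. Acta2 and Myl9 alone made up 87.8% to 92.7% of the summed FPKM of the 10 genes in Il22r-/- libraries and 93.3% to 93.4% in Il22r+/+ libraries.

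Actins, myosin heavy chains, calponins and transgelins were set against their paralogs, and Actg2, Myh11, Cnn1 and Tagln each held a small share of their family. Of the summed FPKM of the 6 actin genes, Acta2 held 11.0% ± 2.40 in Il22r-/- and 5.80% ± 0.490 in Il22r+/+ (SD, n = 3 each), and Actg2 held 0.596% ± 0.250 in Il22r-/- and 0.0157% ± 0.00919 in Il22r+/+. The cytoplasmic actins took the rest: Actb 48.8% in Il22r-/- and 41.6% in Il22r+/+, and Actg1 39.6% in Il22r-/- and 52.6% in Il22r+/+. Actg1 fell 1.53-fold by the edgeR quasi-likelihood test (1996 ± 326 CPM in Il22r-/-, 3044 ± 97.2 CPM in Il22r+/+, adjusted p = 0.00184), while Actb averaged 2481 ± 399 CPM in Il22r-/-, against 2428 ± 155 CPM in Il22r+/+ and did not pass (adjusted p = 0.853). Cnn1 held 0.708% ± 0.194 of the calponin FPKM in Il22r-/- and 0.769% ± 0.125 in Il22r+/+. Myh11 made up 1.78% ± 0.667 of the summed FPKM of the heavy chains Myh9, Myh10 and Myh11 in Il22r-/- and 0.0776% ± 0.0545 in Il22r+/+. Tagln held 1.89% ± 0.108 of the transgelin FPKM in Il22r-/- and 7.10% ± 0.906 in Il22r+/+, where Tagln2, its paralog of non-muscle cells, held nearly all the remainder. Tagln2 itself rose 2.04-fold, averaging 176 ± 24.7 CPM in Il22r-/-, against 86.1 ± 4.03 CPM in Il22r+/+ (edgeR adjusted p = 2.27e-05), so the Tagln share moved with both genes.

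Because actin genes resemble each other, shared sequence was counted. None of the 1284 windows of 50 bases in the longest coding Actg2 transcript occurred in a transcript of another gene in GENCODE M21. For Acta2 the share was 0.352% of windows, shared with Actg1 and the pseudogene Actg-ps1, and for Myh11 it was 0.4%, shared mainly with Myh9 and Myh10. Shorter or mismatched alignments were not counted in this way.

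**Figure D3:**
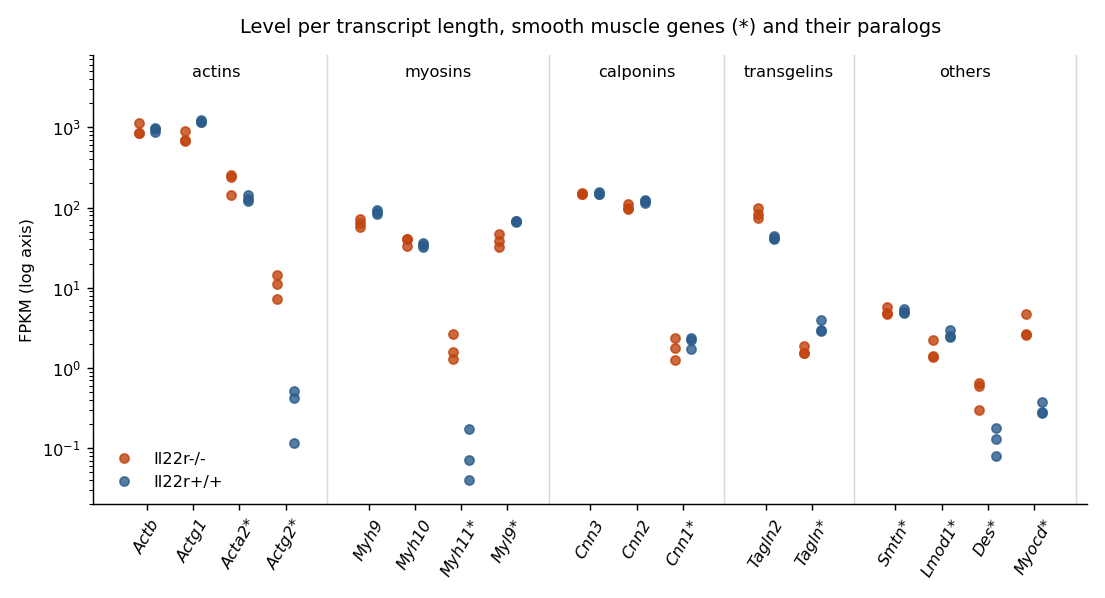
Deposited FPKM (y axis, log scale) of the smooth muscle genes, marked with an asterisk, and of their paralogs, 1 point per library, with Il22r-/- to the left of Il22r+/+ for each gene. Actg2 and Myh11 sit well below Actb, Actg1, Myh9 and Myh10 in both genotypes, and Tagln lies below Tagln2.

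The promoters were read for the CArG box, the element that serum response factor binds. It is taken here as CC, then 6 bases that are each A or T, then GG, a pattern that reads the same on both strands. Whether the factor acts on these genes in these cells was not tested. RefSeq windows of 300 bases, from 250 before the start site to 50 after it (GRCm38.p6), were found for 6 of the 10 genes: Acta2, Cnn1, Des, Myl9, Lmod1 and Smtn. An exact CArG box was present in 1 of the 6, Myl9, and a match with at most 1 mismatch was present in Acta2, Myl9 and Lmod1. Over all 32851 promoter windows, 1.63% held an exact match and 21.1% a match with at most 1 mismatch. The 250 bases before the start site are shown for those 3 genes, with exact and 1-mismatch matches in capitals, because they hold 1 gene that was higher (Acta2) and 2 that were lower (Myl9, Lmod1) in Il22r-/-.
Acta2 (chr19:34255374-34255623, GRCm38.p6, minus strand): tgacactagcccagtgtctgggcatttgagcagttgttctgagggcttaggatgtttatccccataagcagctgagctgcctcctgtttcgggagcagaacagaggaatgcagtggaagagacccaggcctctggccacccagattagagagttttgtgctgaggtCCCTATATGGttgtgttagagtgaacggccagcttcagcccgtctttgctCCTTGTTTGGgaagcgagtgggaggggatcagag
Myl9 (chr2:156775214-156775463, GRCm38.p6, plus strand): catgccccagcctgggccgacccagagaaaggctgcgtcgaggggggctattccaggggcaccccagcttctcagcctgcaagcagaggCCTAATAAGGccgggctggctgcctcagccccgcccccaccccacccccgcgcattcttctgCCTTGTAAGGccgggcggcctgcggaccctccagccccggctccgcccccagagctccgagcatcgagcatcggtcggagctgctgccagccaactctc
Lmod1 (chr1:135324563-135324812, GRCm38.p6, plus strand): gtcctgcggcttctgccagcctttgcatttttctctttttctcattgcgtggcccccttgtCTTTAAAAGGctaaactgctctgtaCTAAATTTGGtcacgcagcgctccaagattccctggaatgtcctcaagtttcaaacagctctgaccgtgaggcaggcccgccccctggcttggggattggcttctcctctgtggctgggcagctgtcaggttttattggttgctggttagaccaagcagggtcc
Counted from the start site, the matches began at -84 and -34 in Acta2, at -161 (exact) and -99 in Myl9, and at -189 and -164 in Lmod1. A match describes the letters of the window and is not evidence of binding.

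Among other genes of the contractile apparatus, drawn from a list of 46 that does not include the 10, changes went in both directions. Of 43 tested, 17 rose and 8 fell by the edgeR quasi-likelihood test and 18 did not pass. That is 58.1% called, beside 45.7% of all tested genes, and the median log2 change was 0.17, beside 0.03. Lmod2, Lmod3 and Smtnl1, relatives of Lmod1 and Smtn best known from striated or specialised muscle, had no reads in any library. The count of fallen genes was 4 when library size was the only scaling, 4 without Il22r+/+ replicate 1 or 2, and 5 without Il22r-/- replicate 1 or Il22r+/+ replicate 3.

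The largest changes of that list at 5 CPM or more were increases. Smtnl2, a smoothelin-like gene, averaged 66.5 ± 8.87 CPM in Il22r-/-, against 15.6 ± 5.24 CPM in Il22r+/+ (log2 2.09 ± 0.24, adjusted p = 0.000301). Synm, which encodes the desmin-associated filament protein synemin, averaged 15.1 ± 5.37 CPM in Il22r-/-, against 4.49 ± 1.10 CPM in Il22r+/+ (log2 1.75 ± 0.27). Tmod1, which caps the slow-growing end of actin filaments, rose 2.82-fold, and Csrp2, a LIM protein of smooth muscle, rose 2.72-fold to 138 ± 29.9 CPM in Il22r-/-, against 50.6 ± 4.44 CPM in Il22r+/+. In each of these 4 genes all Il22r-/- libraries lay above all Il22r+/+ libraries.

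Several further genes of the list are named after their values were seen. Ppp1r14a, an inhibitor of myosin phosphatase that sustains contraction, had 91, 151 and 50 reads in Il22r-/- replicates 1 to 3, against 8, 11 and 11 in Il22r+/+ replicates 1 to 3 (log2 3.17 ± 0.39, adjusted p = 9.5e-05). Mylk, the kinase that phosphorylates the myosin light chain, rose 1.25-fold to 145 ± 15.6 CPM in Il22r-/-, against 116 ± 3.51 CPM in Il22r+/+. Vcl, the focal adhesion protein vinculin, fell 2.24-fold to 267 ± 21.1 CPM in Il22r-/-, against 598 ± 2.34 CPM in Il22r+/+. The tropomyosin Tpm2 fell 1.32-fold, whereas Tpm1, with 1563 ± 140.2 CPM in Il22r-/- and 1537 ± 103 CPM in Il22r+/+, and the caldesmon gene Cald1, with 3600 ± 143 CPM in Il22r-/- and 3176 ± 135 CPM in Il22r+/+, did not pass.

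A list of 30 genes covered the serum response factor and MRTF system, with its regulators, cofactors and targets and the TGF-beta genes that feed into it. Of these, 29 were tested, and 6 rose, 14 fell and 9 did not pass. That is 69.0% called, beside 45.7% of all tested genes, with a median log2 change of -0.17. Nkx3-2 had no reads. Fhl1, a LIM-domain protein of muscle, averaged 169 ± 34.1 CPM in Il22r-/-, against 22.8 ± 1.54 CPM in Il22r+/+ (log2 2.88 ± 0.14, edgeR adjusted p = 6.85e-07). Tgfb2, a TGF-beta ligand, rose 3.72-fold, and Mef2c, a muscle transcription factor, rose 3.10-fold. Tgfbr2, a TGF-beta receptor chain, fell 3.33-fold (log2 -1.74 ± 0.11) to a mean of 58.6 CPM in Il22r-/-, against 195 CPM in Il22r+/+.

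Srf, the Myocd relatives Mrtfa and Mrtfb, and further TGF-beta genes of the list are named here after their values were seen. Srf itself averaged 54.0 ± 7.45 CPM in Il22r-/-, against 51.8 ± 2.67 CPM in Il22r+/+ and did not pass (log2 0.06 ± 0.10, edgeR adjusted p = 0.662). Mrtfa fell 1.55-fold, with 48.1 ± 6.39 CPM in Il22r-/- and 74.5 ± 4.07 CPM in Il22r+/+ (adjusted p = 0.000467). Mrtfb averaged 53.6 ± 8.53 CPM in Il22r-/-, against 56.1 ± 3.00 CPM in Il22r+/+ and did not pass (adjusted p = 0.647). Tgfb1 and Smad3, a TGF-beta ligand and a transducer of its signal, fell 1.73-fold and 1.51-fold. Tgfbr1, a TGF-beta receptor chain, rose 1.31-fold (edgeR adjusted p = 0.0016), and Smad2, another transducer, did not pass (adjusted p = 0.358).

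**Figure D4:**
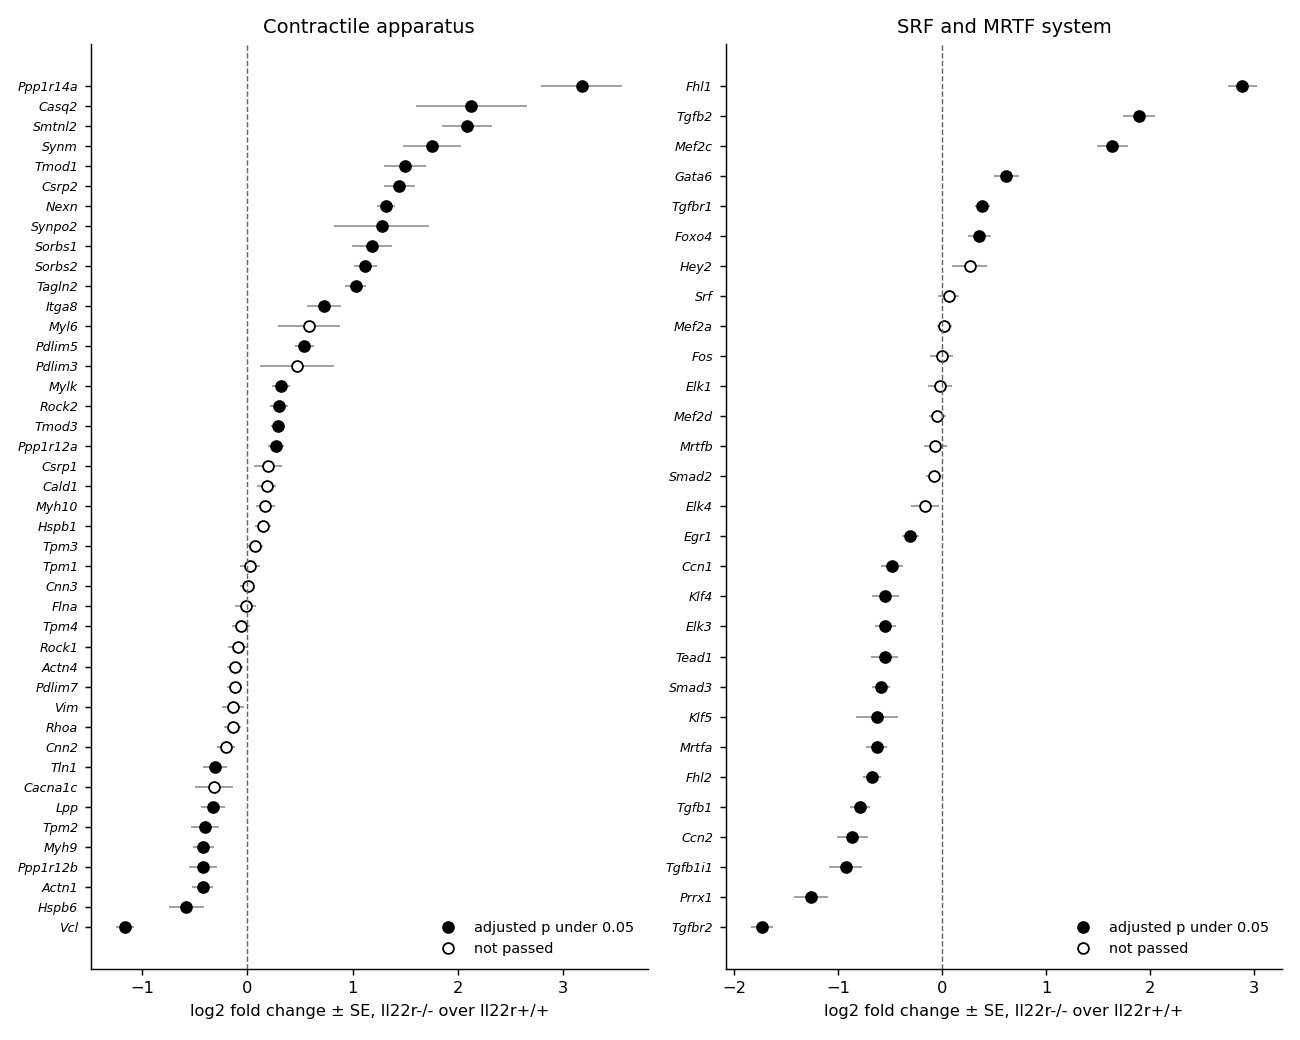
Log2 fold change (x axis, Il22r-/- over Il22r+/+, with standard error) of the tested genes of the contractile apparatus list (left, 43 genes) and of the serum response factor and MRTF list (right, 29 genes). Filled circles passed an adjusted p of 0.05 in edgeR. On the left 17 genes rose and 8 fell, and on the right 6 rose and 14 fell.

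Markers of other cell types were also read, beside the 45.7% of all tested genes that were called. In bulk RNA a change in the number of such cells and a change in RNA per cell cannot be told apart. The count filter admits a gene with enough reads in 1 genotype alone. Adgre1, Cspg4 and Kdr, named after their values were seen, entered the test through Il22r-/- alone. They were thus open to a call as higher but hardly to one as lower. Of 10 markers of vascular smooth muscle and pericytes 4 had enough reads for the test, of which 1 rose and 2 fell. Their summed level was 138 to 247 CPM in Il22r-/- and 304 to 348 CPM in Il22r+/+. Most of that sum came from Mcam, an adhesion molecule also found outside vessel walls, at 180.0 ± 49.8 CPM in Il22r-/- and 291 ± 25.1 CPM in Il22r+/+. Notch3 averaged 10.1 ± 2.95 CPM in Il22r-/-, against 15.9 ± 1.98 CPM in Il22r+/+. Mcam no longer passed without Il22r-/- replicate 3 or Il22r+/+ replicate 2, nor Notch3 without Il22r+/+ replicate 1. Pdgfrb, which did not pass (edgeR adjusted p = 0.0923, though it was called without Il22r-/- replicate 2), averaged 8.56 ± 3.76 CPM in Il22r-/-, against 13.3 ± 1.18 CPM in Il22r+/+. Cspg4, named after its values were seen, rose 7.92-fold from few reads. Rgs5, a defining pericyte marker, stayed near 0, and the rest lay below the filter. Higd1b had no reads in Il22r-/- and 1 in Il22r+/+. Kcnj8 and Kcnmb1 had none in Il22r+/+, and Kcnmb1, a smooth muscle potassium channel subunit, had 11, 23 and 7 in Il22r-/- replicates 1 to 3. Kcnj8 had 2, 15 and 0 reads in Il22r-/- replicates 1 to 3. Abcc9, named after its values were seen, had 7, 36 and 2 reads there, against 0, 1 and 0 in Il22r+/+ replicates 1 to 3. Of the scarce genes, Cspg4, Kcnmb1, Kcnj8 and Abcc9 thus went the other way from the sum, which Mcam dominated, while Higd1b did not. Kcnj8 and Abcc9 did so mainly through Il22r-/- replicate 2.

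Theca and stroma markers summed to 255 to 410 CPM in Il22r-/- and 707 to 727 CPM in Il22r+/+, with 1 of 7 tested genes higher, 2 lower and 4 not passing. That is 42.9% called, no more than the 45.7% of all tested genes. Cyp17a1 and Insl3, the theca genes of the list, are named after their values were seen. Each had at most 3 reads in any library and lay below the filter, so the sum does not measure theca cells. Dcn averaged 10.6 ± 2.59 CPM in Il22r-/-, against 243 ± 64.2 CPM in Il22r+/+, Col3a1 averaged 107 ± 18.3 CPM in Il22r-/-, against 300.2 ± 40.2 CPM in Il22r+/+, and both passed as lower. Col1a1 averaged 103 ± 32.6 CPM in Il22r-/-, against 132 ± 16.9 CPM in Il22r+/+, and did not pass (edgeR adjusted p = 0.282). Col1a2, chosen after its values were seen, was the gene that passed as higher, with 61.3 ± 32.9 CPM in Il22r-/- and 1.61 ± 1.18 CPM in Il22r+/+. Tcf21, a stromal transcription factor, was covered by 22, 42 and 8 reads in Il22r-/- replicates 1 to 3, against none in Il22r+/+. Macrophage markers summed to 25.7 to 74.5 CPM in Il22r-/- and 8.47 to 9.89 CPM in Il22r+/+, and all 6 tested rose, led in abundance by Lyz2, Cd68 and Csf1r, although Cd68 no longer passed without any 1 library other than Il22r-/- replicate 3.

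Mesothelial and ovarian surface markers summed to 161 to 178 CPM in Il22r-/- and 528 to 532 CPM in Il22r+/+, with 6 of 8 lower, led in abundance by Krt18, Krt8 and Upk1b. Krt8 no longer passed without Il22r+/+ replicate 1. Endothelial markers were low in both genotypes, at 4.20 to 7.79 CPM in Il22r-/- and 3.74 to 5.63 CPM in Il22r+/+, of which Tek fell and Pecam1 and Kdr rose (Tek lost its call without Il22r-/- replicate 2 or 3 or Il22r+/+ replicate 2 or 3, Pecam1 without Il22r-/- replicate 2 or Il22r+/+ replicate 1 or 2, and Kdr also without Il22r-/- replicate 2, where no endothelial marker was called higher), while Cdh5 had 62 reads in Il22r-/- and 2 in Il22r+/+, and Emcn and Cldn5 had none in Il22r+/+. Striated muscle markers summed to 0.131 to 0.907 CPM in Il22r-/- and 0.585 to 1.42 CPM in Il22r+/+, with Myh1, Ckm, Myog and Myod1 at 0 in every library. Tnnt3, Acta1 and Myh6 were the most abundant of them and all lay below the filter, as did all oocyte markers except Gdf9 (0.197 to 1.81 CPM summed over the list in Il22r-/-, 0.355 to 0.877 CPM in Il22r+/+, with Zp3 and Bmp15 next in abundance and Zp2 at 0 in Il22r+/+).

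Within Il22r-/-, the libraries ranked alike for many of these genes. Replicate 2 was the highest Il22r-/- library for 7 of the 10 contractile genes (Actg2, Myh11, Cnn1, Tagln, Myl9, Lmod1 and Smtn), and replicate 3 was the lowest for 7 (the first 5 of these, Smtn and Des). The macrophage sum followed that order, with 51.4, 74.5 and 25.7 CPM in Il22r-/- replicates 1 to 3, as did the endothelial sum and the reads of Kcnmb1, Tcf21, Ppp1r14a and Col1a2. The order was not limited to such cell types, and how common it is among all tested genes was not counted. The granulosa sum had it too, with 10006, 10379 and 9436 CPM in Il22r-/- replicates 1 to 3, as did the very low striated muscle and oocyte sums. The theca and stroma sum was 255, 410 and 310 CPM and the vascular smooth muscle sum 138, 247 and 224 CPM in replicates 1 to 3, both highest in replicate 2. The mesothelial sum was highest in replicate 1, with 178, 176 and 161 CPM in Il22r-/- replicates 1 to 3. Acta2 and Myocd did not follow the order either, being highest in replicate 3. The part of other cell types in the differences between genotypes was not tested.

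**Figure D5:**
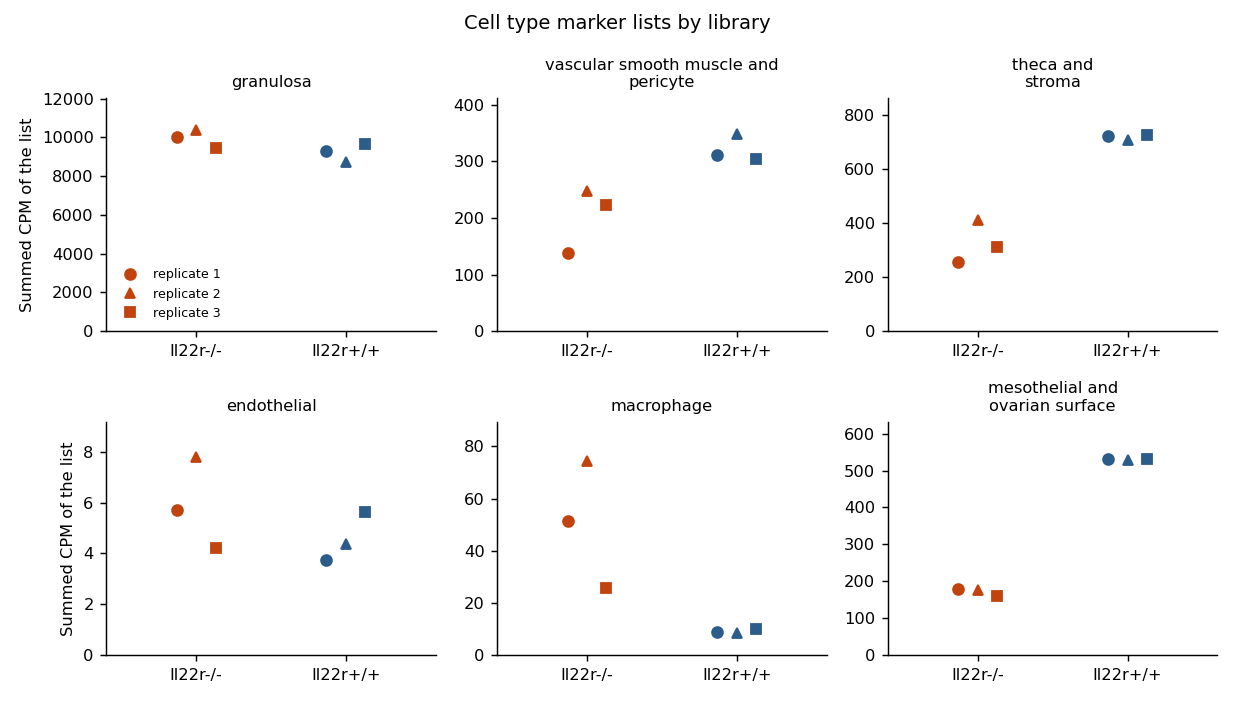
Summed CPM (y axis, linear, starting at 0) of 6 cell type marker lists in the 3 Il22r-/- libraries (left) and the 3 Il22r+/+ libraries (right), with symbols for the replicate number in both colours. The sum was higher in Il22r-/- for macrophage markers and lower for theca and stroma, mesothelial and vascular smooth muscle markers. Most of the vascular smooth muscle sum came from Mcam, and single genes of that list went either way. Il22r-/- replicate 2 was the highest Il22r-/- library for the granulosa, vascular smooth muscle, theca and stroma, endothelial and macrophage lists. For the mesothelial list it was replicate 1.

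The genes whose log2 CPM over the 6 libraries was most like Actg2 were Lig1, Exosc10 and Zmym1 (Pearson r 0.9997, 0.9994 and 0.9990), those most like Myh11 were Ttl, Gtf2h2 and Rwdd1 (0.9966, 0.9959 and 0.9957), and those most like Tagln were Rpl21-ps8, Plpp5 and Twf1 (0.9968, 0.9962 and 0.9954). These coefficients describe 6 libraries in 2 groups that they share, and a value of 0.95 or more was reached by 816 of 11069 candidates for Actg2, by 472 for Myh11 and by 307 for Tagln. The magnitude of change was not part of the measure. Lig1, a DNA ligase, averaged 49.8 CPM in Il22r-/-, against 26.3 CPM in Il22r+/+, a far smaller difference than that of Actg2.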

How the data were processed

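RNA of cultured granulosa cells was sequenced in 3 Il22r-/- and 3 Il22r+/+ libraries, grouped by the genotype in their titles. The deposited tables held raw counts, made with featureCounts 1.5.0-p3 on mm10 per the submitters' processing notes, and FPKM. Aligner, read filters and strand setting were not given in the sources used here. Count divided by length and deposited FPKM gave 1 constant per library, so the authors made the FPKM from the same counts, with library totals rescaled by 0.936 to 1.05. The exon lengths of the 10 genes in the deposited table equal those of GENCODE M21.

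Counts were tested as deposited with edgeR 4.0.16 (filterByExpr, TMM, robust quasi-likelihood fit, genotype as the only term) in R 4.3.3, and Benjamini-Hochberg adjustment ran over the 15227 tested genes, with a threshold of 0.05. Log2 fold changes are Il22r-/- minus Il22r+/+. Their standard errors are the size of the log2 change divided by the square root of the F statistic. Values after ± elsewhere are SD over 3 libraries. Alternatives were DESeq2 1.42.0 (its test, and its size factors in edgeR), library size alone, other filters, limma 3.58.1 on log2(FPKM + 1) or, with a pseudocount of 0.1, on log2(FPKM + 0.1), a fit blocking on replicate number, and each library left out. The edgeR step was tested on simulated data.

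The 10 genes and all lists were chosen with earlier results of these data known. Besides the 10, the naming rule took up to 4 called genes of each list by size of change (mean of at least 5 CPM), the 3 most abundant of each marker list, and the 3 genes most correlated with Actg2, Myh11 and Tagln. Libraries of 1 genotype varied beyond sampling noise (chi-square per gene 4.70 to 27.2), so none was counted as a duplicate. Promoter sequences are from RefSeq. Counts limit the precision of Actg2, Myh11 and Des, whose Il22r+/+ libraries had 3 to 22 reads.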

Additional observations from a re-analysis of the deposited data

How the results depend on the processing

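The edgeR count of called genes was 6963, and it ranged from 5411 to 8243 (8243 without Il22r-/- replicate 3) when 1 library was left out. Scaling by library size alone shifted the median log2 change by 0.103 and made 63.6% of 7225 calls higher, beside 51.6% in the main analysis. Deviations of same-numbered libraries were little correlated between genotypes (0.026, -0.041 and -0.028), beside -0.016 to 0.048 for unlike-numbered libraries. With 3 libraries per genotype, such values cannot settle whether the samples were paired. A replicate block gave 6405 calls.

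Of the 10 contractile genes, 4 to 5 stayed higher and 2 to 3 lower with 1 library left out, and limma on unfiltered log2(FPKM + 1) called 3 higher. The log2 fold change of Smtn, 0.03, changed sign to -0.0017 with limma on log2(FPKM + 1), with or without the filter, and to -0.0025 on log2(FPKM + 0.1). It ranged from -0.0814 (without Il22r-/- replicate 2) to 0.0744 with 1 library left out, and was -0.0157 without Il22r+/+ replicate 1.

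Among the lists, 8 contractile apparatus genes fell, but 4 with library size alone, 3 with unfiltered FPKM and 4 to 10 with 1 library left out. Unfiltered FPKM called 1 actin higher (1 to 2 with 1 library left out), and 0 vascular smooth muscle markers higher and 0 lower (1 to 2 and 1 to 3). Without a count filter, 4 vascular smooth muscle, 2 theca and stroma and 1 mesothelial marker were higher (1 to 2, 1 to 2 and 0 to 1 with 1 library left out). Endothelial markers called higher numbered 0 when only genes averaging 1 CPM or more were tested and with limma on log2(FPKM + 1), filtered or not, and those called lower numbered 0 with library size alone, no count filter, unfiltered FPKM or the replicate block (0 to 3 and 0 to 1 with 1 library left out). Fewer genes with enough reads enter the stricter filter, and otherwise the cause was not tested. With 3 to 22 reads in Il22r+/+ libraries, depth limits the size of the Actg2, Myh11 and Des differences.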
